A study of Mus musculus with 12 samples.

Results

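The genes described here are 9 components of the NF-kB pathway: the subunit genes Nfkb1, Nfkb2, Rel, Rela and Relb, the inhibitor genes Nfkbia and Nfkbie, and the target genes Tnfaip2 and Tnfaip3. All probe sets whose platform annotation gave 1 of these symbols were taken. This gave 13 of 22626 probe sets, for 8 of the 9 genes, and Nfkb1 was not analysed here. Of the 13, 12 had a mean level at or above the 30th percentile of all probe sets (log2 3.98) and were tested among 15844, while the 1 probe set of Rel lay below it. The cells were ET cells, by their labels an established line from the cortical epithelium of a fetal mouse thymus, and their RNA was measured on 12 Affymetrix arrays. Groups of 2 arrays each held cells given 5 nM TCDD for 2, 4 or 6 h, or the solvent 1,4-dioxane at 0.05% by volume for 2, 4 or 6 h. TCDD, a dioxin, is a ligand of AhR, the aryl hydrocarbon receptor. The labels name no solvent for the TCDD arrays and no genetic change in the cells, which were grown in medium with serum. The series asked which genes respond to TCDD over these hours.

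NF-kB is a family of transcription factors that bind DNA in pairs. In resting cells the pairs are held in the cytoplasm by IkB proteins, and signals from TNF, interleukin-1 or microbial receptors lead to the breakdown of IkB and to entry of the pairs into the nucleus. Several of the genes then switched on, among them those for IkB alpha and A20, act back on the pathway and restrain it. In the thymus, RelB and the alternative branch of the pathway are known for their part in the development of medullary epithelium. AhR is known to bind RelA and RelB.

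For 3 arrays one label opposed another: one TCDD array at 4 h, replicate 2, had the solvent as its treatment, and the description of both solvent arrays at 6 h gave 4 h. Groups were taken from the titles. The submitters call the arrays duplicates of a biological kind without naming the step repeated, so p-values measured how far these arrays scatter, and some of that scatter may be technical. By similarity over the tested probe sets outside the members and pathway lists, 7 arrays formed a larger set. A smaller set of 5 held replicate 2 of both treatments at 2 and 6 h and replicate 1 of TCDD at 4 h. Cortical thymic epithelial markers lay above the filter for 6 of 10 genes on the array (Foxn1, Ccl25, Dll4, Krt8, Cxcl12 and Ctsl). Prss16, Ly75, Krt18 and Epcam were below. Medullary ones were above for 4 of 6, and haematopoietic ones for 5 of 8 (Cd3e, Cd4, Cd8a, Lyz2 and Laptm5), with Ptprc, Itgam and Adgre1 below. All 10 markers of fibroblasts and mesenchyme were above. The filter kept 15844 of all 22626 probe sets, so such shares alone do not show a cell type. Median level percentiles were 40 for cortical, 42.8 for medullary, 36.6 for haematopoietic and 98.3 for fibroblast and mesenchyme markers. The part of other cell types in the results was not tested.

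Promoter windows were read from RefSeq for build GRCm38.p6, each from 250 bases before to 50 bases after an annotated start, and 10 windows of 7 of the 9 genes were found. They were searched on both strands for the 10-base kB consensus bound by NF-kB and for GCGTG, the core letters bound by AhR with its partner Arnt. The kB consensus occurred in 8 of the 10 windows (6 genes), and in 8.46% of all 32851 windows of this length. GCGTG occurred in 7 of the 10 (5 genes), and in 32.4% of all. Windows of 1 gene can overlap, and a match of letters is a description and no evidence of binding. The windows of 3 genes that carry the results below are printed on the strand of the gene, with each kB match in capitals.
Tnfaip2, chr12:111442411-111442710, plus strand: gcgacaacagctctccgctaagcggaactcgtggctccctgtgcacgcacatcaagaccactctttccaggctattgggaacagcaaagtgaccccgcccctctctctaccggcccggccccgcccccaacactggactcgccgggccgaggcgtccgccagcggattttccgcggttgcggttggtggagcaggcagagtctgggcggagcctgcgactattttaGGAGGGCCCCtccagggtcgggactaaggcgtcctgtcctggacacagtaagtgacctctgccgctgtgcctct
Nfkbia, chr12:55492598-55492897, minus strand: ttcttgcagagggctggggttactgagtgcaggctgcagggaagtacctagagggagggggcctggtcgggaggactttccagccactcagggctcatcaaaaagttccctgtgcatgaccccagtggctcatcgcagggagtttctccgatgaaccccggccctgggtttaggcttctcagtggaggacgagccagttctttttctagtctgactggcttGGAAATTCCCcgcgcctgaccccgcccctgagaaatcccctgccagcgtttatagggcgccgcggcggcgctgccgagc
Tnfaip3, first window, chr10:19015361-19015660, minus strand: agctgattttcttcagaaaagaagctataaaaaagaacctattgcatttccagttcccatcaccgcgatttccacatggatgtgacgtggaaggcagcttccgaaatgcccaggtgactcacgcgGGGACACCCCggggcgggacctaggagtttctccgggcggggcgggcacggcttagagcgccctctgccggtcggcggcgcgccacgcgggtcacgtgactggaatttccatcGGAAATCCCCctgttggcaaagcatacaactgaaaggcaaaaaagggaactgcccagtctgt
The Nfkbia window matched the kB consensus at bases 222 to 231, on the strand opposite to the one printed, and held no GCGTG. The Tnfaip2 window matched it at bases 227 to 236 and held GCGTG at bases 44 to 48, both on the opposite strand. The Tnfaip3 window matched it at bases 126 to 135 on both strands and at bases 239 to 248 on the opposite strand, which also held GCGTG at bases 120 to 124 and 209 to 213.

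No probe set of the 8 genes passed the test for TCDD against solvent at any time or on the average of the 3 times. The test was limma's, with p-values adjusted by Benjamini-Hochberg over all 15844 probe sets with 0.05 as the threshold for the adjusted p. Of all probe sets, 0.0189%, 0.0126% and 0.00631% passed at the successive times, and 0.0947% in the averaged comparison. Unadjusted p-values under 0.05 were reached at 2 h by 4 of the 12 tested probe sets, of 2 genes, against 1.49% of all probe sets. Both probe sets of Tnfaip2 were higher with TCDD, against 0.978% of all probe sets higher at this threshold. Of the 4 probe sets of Nfkbia 2 were lower, against 0.511% of all lower. Probe sets of 1 gene are not independent, and Tnfaip2 was known from earlier results to be high at 2 h, so its count carries no test. At 4 and 6 h the count was 0, against 2.17% and 2.15% of all. For the average it was 3 (both of Tnfaip2, higher, and 1 of Nfkbia, lower), against 3.36% of all. The median log2 change of the 12 was -0.10 at 2 h, 0 at 4 h and -0.15 at 6 h, beside 0, 0 and -0.05 over all tested probe sets. In bulk RNA, fewer cells of a type and less RNA per cell cannot be told apart.

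Tnfaip2, which encodes a TNF-induced protein that promotes membrane tubes between cells, differed most between treatments. By probe set 1416273_at its log2 levels at 2 h were 7.6 and 7.4 on the TCDD arrays, against 6.9 and 6.2 on the solvent arrays. At 4 h they were 7.5 and 7.0 with TCDD, against 6.9 and 6.8 in solvent. At 6 h they were 6.7 and 6.6 with TCDD, against 6.8 and 6.8 in solvent. Both TCDD arrays thus lay above both solvent arrays at 2 and 4 h and below them at 6 h. The log2 change was 0.95 ± 0.24 (SE, n = 2 against 2) at 2 h, which is 1.93-fold, with a 95% interval of 0.41 to 1.49 and a limma adjusted p of 1. It was 0.40 ± 0.24 at 4 h and -0.15 ± 0.24 at 6 h, with intervals that held 0. Without the second 4 h TCDD array, whose labels contradict each other, the change at 4 h was 0.65, and without the first it was 0.15.

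The second probe set of Tnfaip2, 1438855_x_at, gave the same picture at 2 and 4 h, with a correlation of 0.94 between both probe sets over the 12 arrays. Its log2 levels at 2 h were 8.9 and 8.7 with TCDD, against 8.2 and 7.6 in solvent. At 4 h they were 8.6 and 8.5 with TCDD, against 8.2 and 8.1 in solvent. At 6 h they were 8.3 and 8.1 with TCDD, against 8.1 and 8.0 in solvent, and here the groups met at 8.1. The log2 change was 0.90 ± 0.21 at 2 h (1.87-fold, 95% interval 0.44 to 1.36, limma adjusted p = 0.834). It was 0.40 ± 0.21 at 4 h and 0.15 ± 0.21 at 6 h. On the average of the 3 times it was 0.48 ± 0.12 (n = 6 against 6, limma adjusted p = 0.491), and that of the first probe set 0.40 ± 0.14.

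The second 2 h solvent array was the lowest of all 12 for Tnfaip2 by either probe set, and part of the difference at 2 h rested on it. Without it the change at 2 h was 0.60 by each probe set. Within the larger set of arrays the change at 2 h was 0.70 by each probe set, and within the smaller set 1.20 by 1416273_at and 1.10 by 1438855_x_at. In each set this compared 1 TCDD array with 1 solvent array of the same replicate number. With the array set as a block the adjusted p of 1438855_x_at was 0.219 at 2 h and 0.130 on the average, and pairing arrays by a replicate block per time it was 0.388 and 0.209 (limma).

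**Figure D1:**
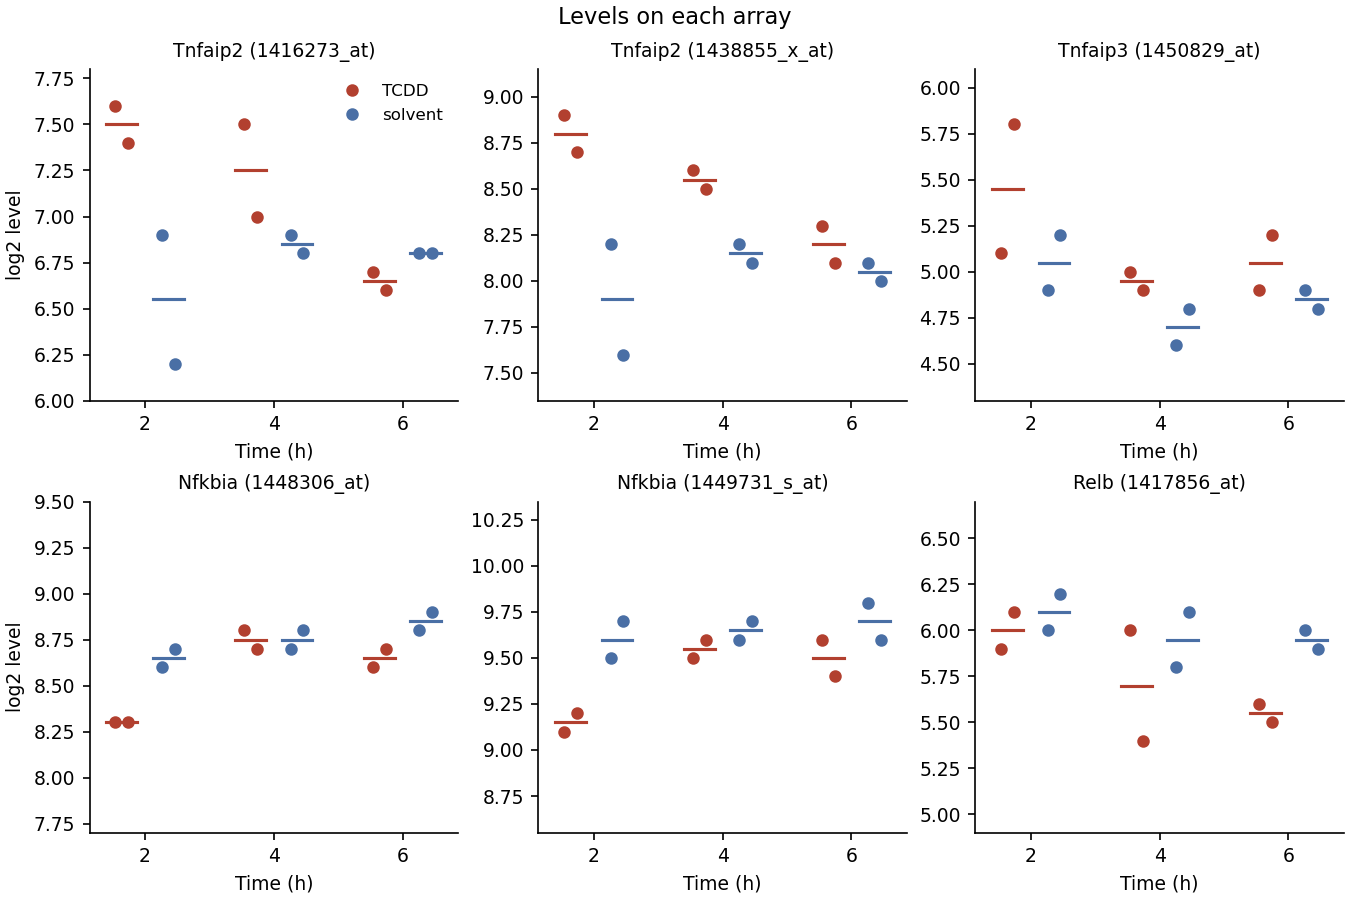
Log2 level (y axis, a span of 1.8 in each panel) by time in hours (x axis) for 6 probe sets of Tnfaip2, Tnfaip3, Nfkbia and Relb; each point is 1 array, TCDD in red and solvent in blue, and lines are group means of 2 arrays. All probe sets of Tnfaip2, Tnfaip3 and Relb are shown. Of the 4 for Nfkbia, only the 2 with an unadjusted limma p under 0.05 at 2 h are shown. Tnfaip2 is higher with TCDD at 2 and 4 h, and Relb is lower at 6 h. The Nfkbia probe sets shown, picked by their change at 2 h, are lower then, while the groups of the 2 left out overlap. No difference passed the adjusted test.

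Over the 2, 4 and 6 h arrays the mean level of 1416273_at was 7.50, 7.25 and 6.65 with TCDD and 6.55, 6.85 and 6.80 in solvent. TCDD cultures at 6 h stood 0.85 ± 0.24 below those at 2 h by this probe set and 0.60 ± 0.21 below by 1438855_x_at (limma adjusted p = 0.597 for both). In this comparison 3 of the 12 reached an unadjusted p under 0.05, both of Tnfaip2 lower and 1 of Nfkbia higher at 6 h. Of all probe sets 8.1% did, 5.13% higher and 2.97% lower, and 0% passed after adjustment. In solvent the same step was 0.25 ± 0.24 and 0.15 ± 0.21. The difference of the TCDD effect between the 3 times did not pass (limma's moderated F, adjusted p = 0.9995 for both probe sets). Of the 12, only 1416273_at had an unadjusted p under 0.05 here, as did 0.663% of all probe sets, of which 0% passed. Ordered by mean level, the groups ran from TCDD at 2 h through TCDD at 4 h, solvent at 4 h, solvent at 6 h and TCDD at 6 h to solvent at 2 h, and no neighbours in this order differed by more than 0.40.

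Tnfaip3 encodes A20, an enzyme that edits ubiquitin on signalling proteins and so restrains NF-kB. Its 1 probe set, 1450829_at, had a mean log2 level of 5.01, at the 48.7th percentile of all probe sets. Its levels at 2 h were 5.1 and 5.8 with TCDD, against 4.9 and 5.2 in solvent. At 4 h the levels were 5.0 and 4.9 with TCDD, against 4.6 and 4.8 in solvent. At 6 h they were 4.9 and 5.2 with TCDD, against 4.9 and 4.8 in solvent. The groups overlapped at 2 h, were apart at 4 h with TCDD above, and met at 4.9 at 6 h. Log2 changes were 0.40 ± 0.24, 0.25 ± 0.24 and 0.20 ± 0.24 in time order, with an average of 0.28 ± 0.14 (95% interval -0.02 to 0.59, limma adjusted p = 1). The second 2 h TCDD array was the highest of all 12. Without it the change at 2 h was 0.05, and without the first it was 0.75. The change within the larger array set was 0.20 at 2 h, 0.20 at 4 h and 0 at 6 h. Within the smaller set it was 0.60 at 2 h and 0.40 at 6 h. Each of these compared 1 TCDD array with 1 solvent array, or with 2 solvent arrays at 4 h.

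Nfkbia encodes IkB alpha, the inhibitor that NF-kB itself induces, and 4 probe sets report it. By 1449731_s_at the log2 levels at 2 h were 9.1 and 9.2 with TCDD, against 9.5 and 9.7 in solvent. At 4 h they were 9.5 and 9.6 with TCDD, against 9.6 and 9.7 in solvent. At 6 h they were 9.6 and 9.4 with TCDD, against 9.8 and 9.6 in solvent. The groups were apart at 2 h, with TCDD below, and met at 9.6 at both later times. The log2 change at 2 h was -0.45 ± 0.16, or 0.732-fold (95% interval -0.81 to -0.09, limma adjusted p = 1).

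The other probe sets of Nfkbia differed in size. By 1448306_at the log2 levels at 2 h were 8.3 and 8.3 with TCDD, against 8.6 and 8.7 in solvent, a change of -0.35 ± 0.14 (limma adjusted p = 1). At 4 h its levels were 8.8 and 8.7 with TCDD, against 8.7 and 8.8 in solvent. At 6 h they were 8.6 and 8.7 with TCDD, against 8.8 and 8.9 in solvent. The groups held the same pair of values at 4 h, and TCDD lay below solvent without overlap at 2 and 6 h. The changes of 1420088_at and 1420089_at at 2 h were -0.30 ± 0.22 and -0.15 ± 0.23, with overlapping groups. Without the first 2 h solvent array these changes were -0.55 and 0.10, and without the second they were -0.05 and -0.40, so the sign of 1420089_at turned on 1 array. Averaged over the 3 times, all 4 were below 0, between -0.15 and -0.25, and none passed (limma adjusted p = 1 for each).

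In TCDD cultures the mean level of Nfkbia at 2 h lay below those at 4 and 6 h by all 4 probe sets, and no step passed the test. By 1448306_at the level at 4 h was 0.45 ± 0.14 above that at 2 h and at 6 h 0.35 ± 0.14 above it (limma adjusted p = 1 and 0.603). By 1449731_s_at the steps were 0.40 ± 0.16 and 0.35 ± 0.16. By 1420088_at they were 0.40 ± 0.22 and 0.20 ± 0.22, and by 1420089_at 0.05 ± 0.23 each. In TCDD cultures at 4 h against 2 h, 1448306_at and 1449731_s_at, 2 of the 12 probe sets, had an unadjusted p under 0.05, both higher at 4 h. Of all probe sets 1.38% did, 0.644% higher and 0.738% lower, and 0% passed. In solvent the same steps were 0.10 and 0.20 by 1448306_at and 0.05 and 0.10 by 1449731_s_at. The difference of the TCDD effect between the times did not pass for either (limma adjusted p = 0.9995). Correlations between the 4 probe sets over the 12 arrays ran from -0.31 between 1420088_at and 1420089_at to 0.83 between 1448306_at and 1449731_s_at, so they did not report 1 common pattern.

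Nfkbie encodes IkB epsilon, a second inhibitor of the same kind. Its probe set, 1431843_a_at, ran from 4.3 to 5.0 over the 12 arrays, close to the filter value. Log2 changes were 0.10 ± 0.20, -0.20 ± 0.20 and 0.10 ± 0.20 at 2, 4 and 6 h, with overlapping groups each time. On the average the change was 0 (95% interval -0.25 to 0.25), a range that leaves room for changes of either sign.

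**Figure D2:**
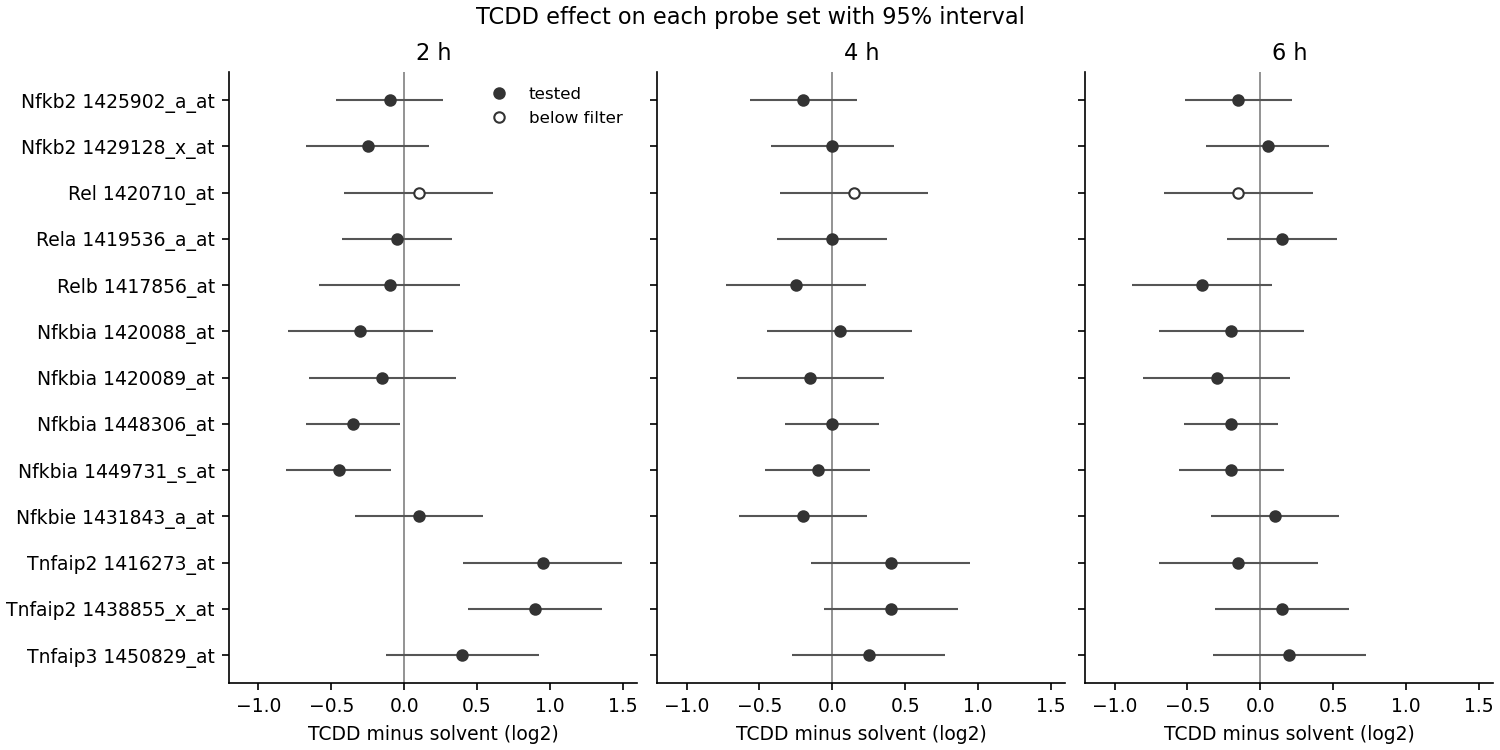
Log2 change of TCDD minus solvent (x axis) for each of the 13 probe sets (y axis) at 2, 4 and 6 h, with the 95% interval from the fit; the open point is Rel, below the filter. At 2 h the intervals of both Tnfaip2 probe sets lie above 0 and those of 2 Nfkbia probe sets below it, and at 4 and 6 h every interval holds 0.

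Among the subunits, Relb, the partner of p52 in the alternative branch, was the one whose level lay apart between treatments at 6 h. The log2 levels of 1417856_at at 2 h were 5.9 and 6.1 with TCDD, against 6.0 and 6.2 in solvent. At 4 h they were 6.0 and 5.4 with TCDD, against 5.8 and 6.1 in solvent. At 6 h they were 5.6 and 5.5 with TCDD, against 6.0 and 5.9 in solvent. The groups overlapped at 2 and 4 h, and at 6 h TCDD lay below solvent. Changes were -0.10 ± 0.22, -0.25 ± 0.22 and -0.40 ± 0.22, and the 6 h interval was -0.88 to 0.08 (limma adjusted p = 1). Within each array set the 6 h change, of 1 TCDD array against 1 solvent array, was -0.40. Against the solvent arrays of 4 and 6 h together it was -0.40 ± 0.18 (limma adjusted p = 0.758). The 4 h change turned on which TCDD array was used: it was 0.05 without the second, whose labels contradict each other, and -0.55 without the first.

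Rela, Nfkb2 and Rel showed small differences. Rela, the subunit with the main activating domain of the classical pair, ran from 8.0 to 8.3 over all 12 arrays (1419536_a_at), and its changes were -0.05 ± 0.17, 0 ± 0.17 and 0.15 ± 0.17. Its average change had a 95% interval of -0.18 to 0.25. Nfkb2 encodes p100, the precursor of p52, and its probe set 1425902_a_at had log2 levels of 7.2 and 7.2 with TCDD at 4 h, against 7.4 and 7.4 in solvent. That change, -0.20 ± 0.16, did not pass, and at 2 and 6 h the groups overlapped. The second probe set, 1429128_x_at, stood at -0.25 ± 0.19, 0 ± 0.19 and 0.05 ± 0.19, and the correlation of both was 0.18. Rel, the subunit c-Rel best known from lymphocytes, ran from 3.1 to 3.9 (1420710_at), below the filter, and is given as measured without a test.

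Groups did not overlap for 4 of the 12 tested probe sets at 2 h, 2 with TCDD higher and 2 lower. Among all probe sets 7.16% were higher and 6.68% lower in this way. At 4 h there were 3 higher (both of Tnfaip2 and that of Tnfaip3) and 2 lower (1420089_at of Nfkbia and 1425902_a_at of Nfkb2), against 7.95% and 11.1% of all. At 6 h there were 0 higher and 3 lower (1416273_at of Tnfaip2, Relb and 1448306_at of Nfkbia), against 9.69% and 9.66%.

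In solvent cultures no probe set of the 8 genes passed the test between times. For 4 h against 2 h and for 6 h against 2 h, 0 of the 12 reached an unadjusted p under 0.05 by limma, against 1.81% and 2.82% of all, and 0% of all passed after adjustment. The steps furthest from 0 were 0.40 ± 0.20 for Nfkbie and -0.35 ± 0.24 for Tnfaip3, both at 4 h.

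The rest of the pathway was read from 7 lists with 81 genes, of which 72 were on the array and 61 were tested, each by its probe set with the highest mean. The lists, drawn up with earlier results of these data known, covered ligands, receptors, adaptors, kinases, other IkB proteins, other feedback proteins and target genes. For that reason the counts of list genes below describe the lists and carry no test of the pathway. At 2, 4 and 6 h 0 of the 61 passed, and on the average 1 passed, a target gene. At an unadjusted p under 0.05, 6 were higher and 3 lower at 2 h, against 0.978% and 0.511% of all probe sets. At 4 h 2 were higher and 1 lower, and at 6 h 1 was higher and 1 lower, against 2.17% and 2.15% of all in either direction. On the average 5 were higher and 4 lower, against 1.87% and 1.49%.

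Upstream of the subunits 0 genes passed the test. Of 7 ligand genes 3 were above the filter, and Tnf stood at -0.05 ± 0.13, Tnfsf13b at -0.03 ± 0.13 and Il1b at -0.02 ± 0.12 on the average. Of 9 tested receptors 5 were above 0, with a median of 0.02. Over all tested probe sets the median of the average change was 0. The share of all probe sets above 0 is not given, so such counts have no baseline here. Tnfrsf1b, the second TNF receptor, had log2 levels at 2 h of 7.6 and 7.2 with TCDD, against 7.0 and 6.7 in solvent. It stood at 0.40 ± 0.11 on the average (limma adjusted p = 0.690), while Il1r1, the interleukin-1 receptor, stood at 0.32 ± 0.17 and Tlr4, the lipopolysaccharide receptor, at 0.15 ± 0.11. Of 7 adaptors 4 were above 0, among them Traf5 at 0.40 ± 0.18 and Myd88 at 0.12 ± 0.10, with Tradd at -0.17 ± 0.15. At 2 h Tnfrsf1b stood at 0.55 ± 0.19, Traf5 at 0.70 ± 0.31 and Il1r1 at 0.60 ± 0.29 (limma adjusted p = 1 for each). Of 8 kinase genes 1 was above 0, with a median of -0.08; Tab1, which activates the kinase TAK1, stood at -0.20 ± 0.10, Map3k14, which encodes the kinase NIK of the alternative branch, at -0.15 ± 0.11, and Ikbke at -0.13 ± 0.12.

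Among other genes of the IkB family, Nfkbiz encodes IkB zeta, a nuclear IkB protein that acts on secondary target genes. Its log2 levels at 2 h were 9.4 and 9.6 with TCDD, against 8.3 and 8.7 in solvent. At 4 h they were 8.3 and 9.1 with TCDD, against 8.6 and 8.7 in solvent. At 6 h they were 9.1 and 8.5 with TCDD, against 9.0 and 8.2 in solvent. The groups were apart at 2 h and overlapped at 4 and 6 h. Changes were 1.00 ± 0.34, 0.05 ± 0.34 and 0.20 ± 0.34 in time order (limma adjusted p = 1 at 2 h and 0.984 at 4 h). On the average Nfkbiz stood at 0.42 ± 0.19, which did not pass the test. Bcl3 and Nfkbib, other members of this list, stood at 0.22 ± 0.15 and 0.12 ± 0.11 on the average. Of 7 other feedback genes 1 was above 0, Tax1bp1 at 0.28 ± 0.20, again a count without a baseline. Tnip1, a partner of A20, stood at -0.32 ± 0.14 (adjusted p = 1) and N4bp1 at -0.18 ± 0.15.

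Of 24 tested target genes 12 were above 0 on the average, with a median of 0, and 1 rose. Ptx3, a secreted pentraxin, was higher by 1.15 ± 0.16 (n = 6 against 6, limma adjusted p = 0.0351). Its log2 levels at 2 h were 9.0 and 9.8 with TCDD, against 7.9 and 8.4 in solvent, at 4 h 9.7 and 9.3 with TCDD, against 8.1 and 8.2 in solvent, and at 6 h 9.3 and 9.0 with TCDD, against 8.3 and 8.3 in solvent. The groups were apart at each time. The change did not pass in 12 of 20 alternatives, whose changes ran from 1.02 to 1.28 with adjusted p from 0.0133 to 0.474. These were the replicate block over all times, the fit without the 4 h arrays, and each fit without 1 array except those without the first 2 h TCDD or the second 4 h TCDD array. Csf1, a growth factor of macrophages, had log2 levels at 2 h of 8.2 and 8.4 with TCDD, against 8.8 and 9.1 in solvent, and stood at -0.48 ± 0.10 on the average (adjusted p = 0.295). Ccl2, a chemokine for monocytes, stood at -0.65 ± 0.18 (adjusted p = 0.731). Both Csf1 and Ccl2, well-known NF-kB targets, were thus below solvent while Tnfaip2 was above it, with no difference past the test. They do not stand for the list. On the average 4 of the 24 target genes were higher and 3 lower at an unadjusted limma p under 0.05. Of all probe sets 1.87% were higher and 1.49% lower in this way. As the list was drawn up with earlier results known, its counts, Ptx3 included, carry no test of the pathway.

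**Figure D3:**
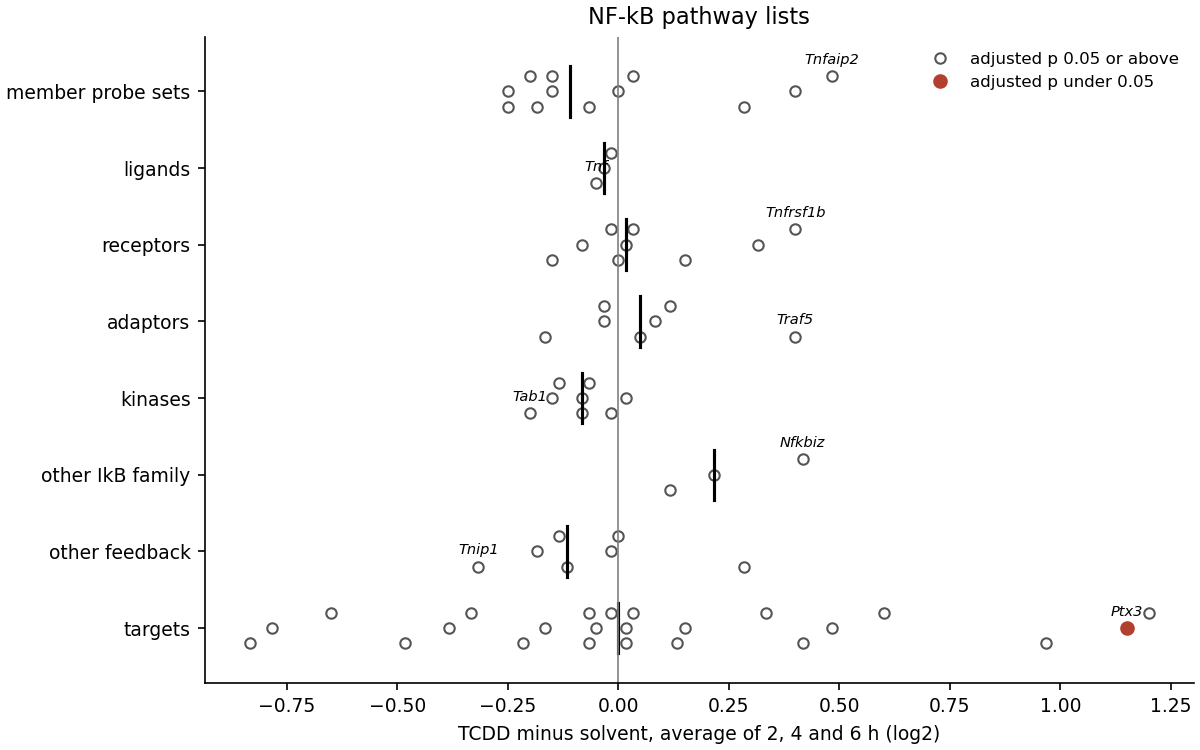
Log2 change of TCDD minus solvent averaged over 2, 4 and 6 h (x axis) for the 12 tested member probe sets and for the tested genes of 7 pathway lists (y axis); each point is 1 probe set, vertical bars are medians, and the gene with the lowest unadjusted p of each list is named, with Tnfaip2 among the members. Ptx3 is the filled point, at 1.15, and the list medians lie between -0.12 and 0.22.

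The genes whose levels followed the members most closely over the 12 arrays were sought for the 4 members with the widest range. These correlations are over 12 arrays that share treatment, time and array set, and are given without a test. The closest to Tnfaip2 (1438855_x_at) were Cdip1 with r = 0.946, Socs3 with r = 0.913 and Tnfrsf1b with r = 0.909. The closest to Tnfaip3 were Bcl2l11 (0.906), Zfp36l2 (0.902) and Nos3 (0.899). Relb was followed by Angpt2 (0.915), Fscn1 (0.899) and BC024139 (0.877), and Nfkbie by Slc35a2 (0.885), Mtfmt (0.858) and Borcs7 (0.824). No gene was among the closest 3 of more than 1 member.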

How the data were processed

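RNA of 12 cultures was measured on Affymetrix arrays. The deposited values are log2 levels of probe sets. The submitters' processing notes name RMA without a version, and earlier steps are not given in the sources used here. The values ran from 2.2 to 14.1 with 1 decimal, with a median of 5.1 on each array, so these values cannot show a change common to all genes. All 12 columns were used. Of 22690 probe sets 64 controls were set aside. Of the other 22626, 20380 had 1 gene symbol, 691 several and 1555 none, and only the first kind was named.

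All 12 arrays entered 1 fit of group means by limma 3.58.1, run in R 4.3.3 (6 residual degrees of freedom). Tests were two-sided with Benjamini-Hochberg adjustment over the 15844 tested probe sets within each of 9 comparisons, and errors of changes are standard errors of this fit. The fit was tested on simulated data with known changes and independent noise, without array sets or replicate structure. That run checked the code and carries no weight for the calls on the members. No depth applies to arrays: 2 per group limited the precision. The array sets came from complete-linkage clustering on 1 minus Pearson's r into 4 clusters, without the members and lists. The largest cluster was the larger set, and the arrays of all other clusters together were the smaller set. Other distances gave other sets, and this distance was taken because it gave the sets of an earlier analysis of these data.

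The main fit left arrays unpaired. Replicate numbers entered the alternatives with a replicate block, within each time or over all times. The block within each time took them as pairing TCDD and solvent arrays. At 2 and 6 h the array sets split the arrays by replicate number as well, so the array set block is no unpaired check there. The differences between the first and the second arrays correlated between treatments with r = 0.365, 0.159 and 0.705 at 2, 4 and 6 h. Between groups of different times the same correlation ran from -0.553 to 0.366, so only the 6 h value lay above that range.

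The members and lists were chosen with earlier results of these data known. Every member probe set is named; of the lists, every gene past the test and the up to 3 genes with the lowest unadjusted p for the average TCDD effect.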

Additional observations from a re-analysis of the deposited data

How the results depend on the processing

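No member probe set passed the limma test in any of the 9 comparisons under any of 22 alternatives, and the lowest adjusted p was 0.111. The alternatives were no filter, a filter at the 50th percentile, only the arrays of the groups compared, the replicate block within each time or over all times, the array set block, a variance trend, centred arrays, the 4 and 6 h solvent arrays together, each array left out in turn and, added after the data were seen, no 4 h arrays. The count of member probe sets past the test was thus 0 with each replicate block, and the replicate block changed no call of a member. For each of the 12 changes of a member with an unadjusted p under 0.05, the sign was kept under every alternative that gave a value.

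The number of all probe sets past the test moved more. With all arrays and no block 3 passed for 2 h, 2 for 4 h, 1 for 6 h and 15 for the average. Pairing by the replicate block within each time gave 1, 1, 1 and 16, and the array set block 10, 7, 8 and 46. With only the arrays of the groups compared it was 0 at each time, with the 4 and 6 h solvent arrays together it was 11 at 6 h, and without the 4 h arrays it was 4 at 6 h and 9 on the average. Over the fits without 1 array it ran from 0 to 9 at 2 h, from 1 to 59 at 4 h and from 0 to 7 at 6 h, and it was 24 on the average without either 4 h TCDD array. The cause was not tested. For TCDD at 4 h against 2 h it was 61 without the second 4 h TCDD array, against 0 with all arrays, and for TCDD at 6 h against 2 h it was 3 with the array set block, against 0 without it. The low signal of Nfkbie and Rel limits what their differences can show.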

Other observations

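Among the NF-kB target genes outside the rule for naming, 4 were chosen after their values were seen, so they do not stand for the list. Of the 24 tested target genes, 4 were higher and 3 lower at 2 h at an unadjusted limma p under 0.05. Of all probe sets 0.978% were higher and 0.511% lower in this way at 2 h. Irf1, an interferon-induced transcription factor, had log2 levels at 2 h of 8.5 and 8.0 with TCDD, against 7.4 and 7.1 in solvent, and stood at 1.00 ± 0.23 (n = 2 against 2, limma adjusted p = 0.834). Birc3, an inhibitor of cell death, had 7.3 and 6.3 with TCDD, against 5.7 and 5.6 in solvent. Ccl20, a chemokine for CCR6-bearing cells, had 5.3 and 6.4 with TCDD, against 5.1 and 5.1 in solvent. Ccl7, a monocyte chemokine, had 6.0 and 6.9 with TCDD, against 6.9 and 7.9 in solvent, where the groups met at 6.9. At 2 h the changes of Birc3, Ccl20 and Ccl7 were 1.15 ± 0.49, 0.75 ± 0.31 and -0.95 ± 0.41. None of these differences passed the limma test at 2 h. At 4 and 6 h the changes were 0.25 and 0 for Irf1 and 0.25 and 0.40 for Birc3. They were 0.50 and 0.20 for Ccl20 and -0.70 at both times for Ccl7. The 4 h TCDD arrays read 5.6 and 7.2 for Birc3, against 6.2 and 6.1 in solvent.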
